A study of Mus musculus with 8 samples.

Results

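Keratins are the intermediate filament proteins of epithelial cells, and their genes were followed in mouse endometrium 8 h after mating. A gene was taken as a member when its symbol in the authors' array annotation was Krt followed directly by digits, which gave 51 of the 24647 genes named there, on 52 of the 41345 transcript clusters (probe groups) of the array. Krt18 alone had 2 clusters and was represented by the one with the lower identifier. The members fell into 5 simple-epithelial keratins, 19 keratins of stratified epithelia, 8 keratins of the hair root sheath, 14 hair keratins and 5 others. Krt72 is a root sheath keratin but is counted among the others, under its older symbol Krt72-ps, by which it is called here. The counts and median of the root sheath class therefore leave it out. Krt85, Krt87 and Krt88 were not analysed.

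Intact females had mated with Intact Balb/c males and so received seminal fluid. SVX/VAS females had mated with SVX/VAS Balb/c males and received none, per the labels, which do not expand the abbreviation. All females were CBA x C57Bl/6 F1 (CBAF1), chosen on the evening after proestrus by vaginal cytology, so coitus and cycle stage were shared by both groups. A copulatory plug was recorded for Intact males alone. The tissue was scraped from the opened uterus and the myometrium discarded. Each group comprised 4 Affymetrix Mouse Gene 2.0 ST arrays, each loaded with RNA pooled from 4 females, and a pool hides the spread between its animals.

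A type I and a type II keratin pair to form a filament, so the genes are used in pairs. The simple pair Krt8 and Krt18, with Krt7 and Krt19, marks single-layered epithelia such as the lining and glands of the uterus. Stratified epithelia such as epidermis and vagina use Krt5 and Krt14 in the basal layer and other pairs above it, and Krt6, Krt16 and Krt17 are known for their induction in injured epidermis. Root sheath and hair keratins build the hair follicle and the hair shaft. Most type I genes lie together on mouse chromosome 11 and the type II genes on chromosome 15, where Krt18 is the type I exception.

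Keratins that stood highest or lowest after Intact mating, and for which RefSeq (GRCm38.p6) gave an upstream sequence, are shown by the 250 bases before their start, 5′ to 3′. They are printed for the letters named below, beside the values that follow.
Krt25, chr11:99322952-99323201, minus strand: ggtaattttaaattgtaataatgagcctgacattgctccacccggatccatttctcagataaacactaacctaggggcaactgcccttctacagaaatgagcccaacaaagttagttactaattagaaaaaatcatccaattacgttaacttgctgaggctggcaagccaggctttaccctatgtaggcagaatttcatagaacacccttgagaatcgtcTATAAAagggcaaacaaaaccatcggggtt
Krt26, chr11:99337966-99338215, minus strand: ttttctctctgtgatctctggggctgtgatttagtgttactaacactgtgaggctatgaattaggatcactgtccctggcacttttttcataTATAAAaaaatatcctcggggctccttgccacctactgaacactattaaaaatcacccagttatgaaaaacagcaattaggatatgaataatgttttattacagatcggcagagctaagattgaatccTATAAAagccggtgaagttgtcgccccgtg
Krt20, chr11:99438154-99438403, minus strand: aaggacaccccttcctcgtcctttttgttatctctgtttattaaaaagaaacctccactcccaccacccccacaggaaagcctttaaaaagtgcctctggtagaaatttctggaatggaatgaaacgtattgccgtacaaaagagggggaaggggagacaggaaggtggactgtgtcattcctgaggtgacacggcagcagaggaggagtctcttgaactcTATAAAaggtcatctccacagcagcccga
Krt14, chr11:100206031-100206280, minus strand: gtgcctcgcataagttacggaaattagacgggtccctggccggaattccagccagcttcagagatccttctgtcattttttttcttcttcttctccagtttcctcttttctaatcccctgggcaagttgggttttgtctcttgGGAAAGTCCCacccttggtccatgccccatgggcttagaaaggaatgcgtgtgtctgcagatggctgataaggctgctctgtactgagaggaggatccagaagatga
Krt18, chr15:102027966-102028215, plus strand: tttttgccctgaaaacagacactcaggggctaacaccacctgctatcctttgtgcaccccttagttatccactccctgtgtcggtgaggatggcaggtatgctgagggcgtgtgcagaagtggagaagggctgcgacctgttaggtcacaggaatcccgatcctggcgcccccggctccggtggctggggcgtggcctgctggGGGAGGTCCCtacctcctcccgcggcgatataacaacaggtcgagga
Capitals mark matches on either strand to TATAAA, a core promoter motif, and to the NF-kB consensus. The NF-kB consensus stood at bases -107 to -98 of Krt14 and -47 to -38 of Krt18, counted back from the start. TATAAA began at base -30 in Krt25 and Krt26 and at -29 in Krt20, and Krt26 held it again at bases -158 to -153. An upstream sequence was found for 34 of the 51 genes. TATAAA occurred in 16 of these 34 and in 12.4% of all 32851 upstream sequences of this length. The NF-kB consensus occurred in 4 of them (Krt14, Krt18, Krt23 and Krt79) and in 7.25% of all. The AP-1 motif TGANTCA was found in Krt13 alone among keratins and in 6.75% of all. The GC box GGGCGG was found in Krt7 and Krt75, 2 of the 34, and in 32.7% of all, and is not marked. These matches are letters in a window and do not show binding.

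No keratin passed limma's test over all 41345 clusters at a Benjamini-Hochberg adjusted p of 0.05, where 0.0822% of clusters did. At an unadjusted p under 0.05, 6 of 51 keratins qualified (11.8%), against 11.9% of all clusters. Of the 6, 5 were higher after Intact mating (Krt25, Krt6b, Krt20, Krt14 and Krt26), and for higher clusters the background was 5.13%. Krt18 was the 1 lower member, against 6.78% of clusters lower at that p. With the 1.5-fold change that the series text also requires, 3 keratins qualified, Krt25, Krt6b and Krt20, all higher, against 2.47% of clusters in either direction and 0.9% higher by the same rule. The methods' t-test named 3 keratins by that rule, against 1.86% of clusters, and 0 after adjustment, against 0.0242%. Only 4 arrays a group stand behind each value, and the standard error (SE) of the log2 difference had a median of 0.134 over the keratins. In bulk tissue fewer cells of a type and less RNA per cell cannot be told apart, in these and all later values.

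**Figure D1:**
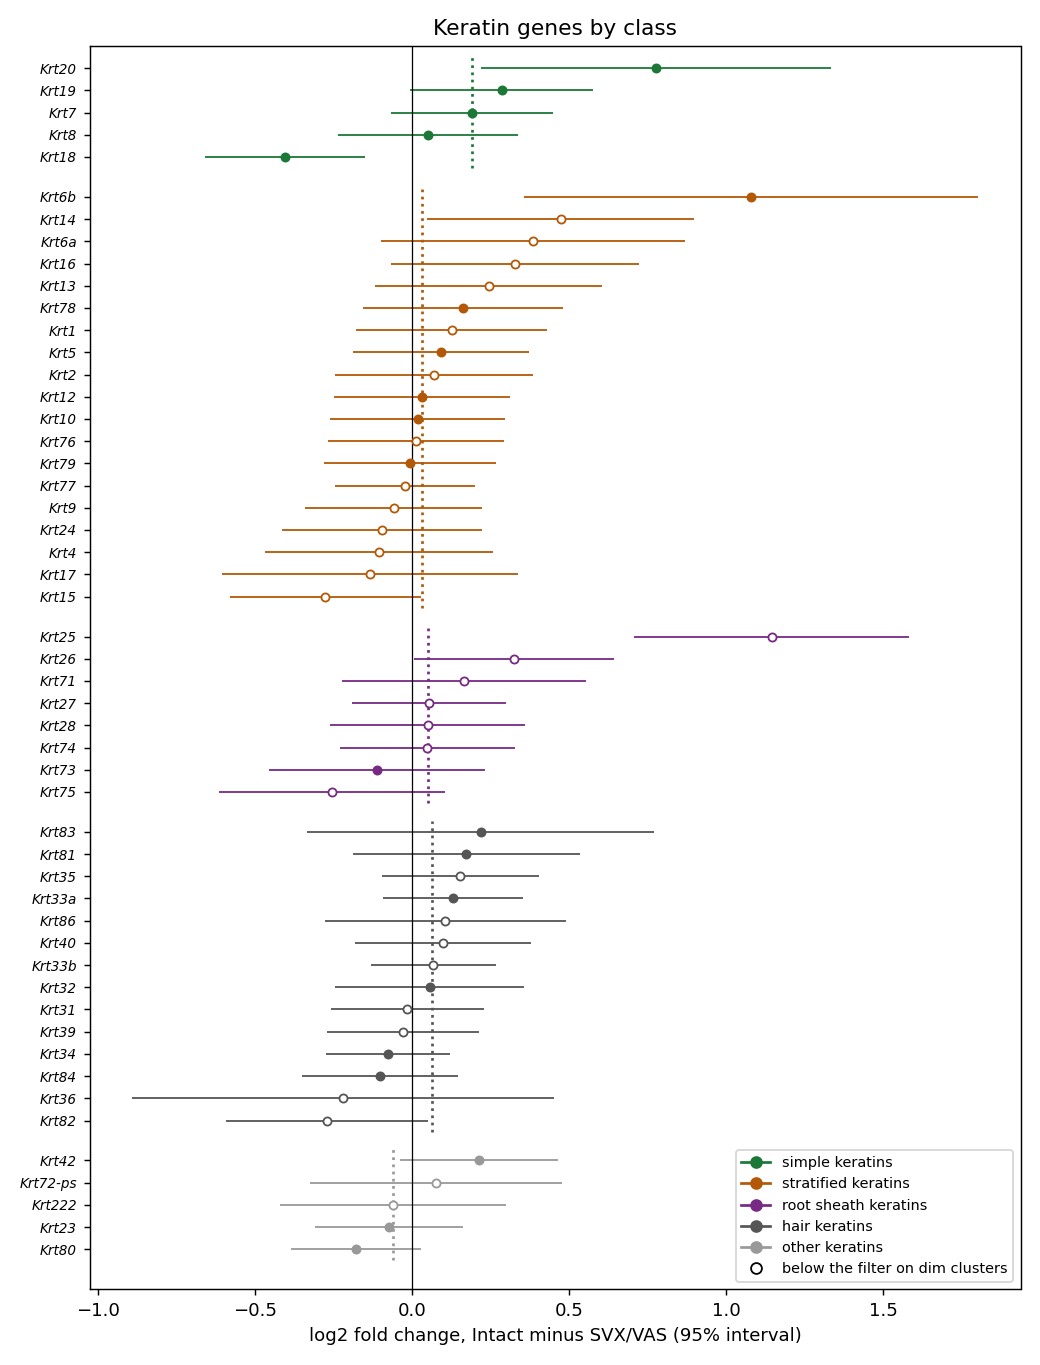
Log2 fold change (Intact minus SVX/VAS, x axis) of each of the 51 keratin genes, by class, with limma's 95% interval over 4 arrays a group. Dotted lines are class medians, open points are genes whose mean signal lay below the median of all clusters, and Krt25, Krt6b, Krt20, Krt14 and Krt26 lie right of zero with their whole interval while Krt18 lies left of it.

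The class medians were all small, and a few members stood apart. The median log2 fold change was 0.19 for the 5 simple, 0.031 for the 19 stratified, 0.052 for the 8 root sheath and 0.062 for the 14 hair keratins, against 0.00 for all clusters. With 1 array left out these medians ran from 0.115 to 0.246 for simple, from -0.004 to 0.073 for stratified, from 0.034 to 0.104 for root sheath and from 0.007 to 0.080 for hair keratins. The stratified median was below 0 without SVX/VAS replicate 4, the hair median lowest without Intact replicate 3, and the simple median lowest without Intact replicate 4. Values above 0 were found in 4 of 5 simple, 12 of 19 stratified, 6 of 8 root sheath and 8 of 14 hair keratins, and in 50.1% of all clusters. All 5 simple keratins had a mean signal at or above the median of all clusters, 5.37 on the log2 scale. In all 21 of the 51 keratins met that level, against 50% of clusters. It was met by 6 of the 19 stratified, 1 of the 8 root sheath and 6 of the 14 hair keratins. For the members below it, the files hold no call of detection above background.

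Of the simple pair, Krt8 showed no difference beyond its spread and Krt18 had lower values after Intact mating. Krt8, the type II partner, had log2 signals of 10.75, 10.65, 10.41 and 10.93 on the Intact arrays, against 10.69, 10.76, 10.64 and 10.46 on the SVX/VAS arrays. Its groups overlapped throughout, with a log2 difference of 0.050 (95% interval -0.24 to 0.34). Krt18, the type I partner, had 9.76, 9.56, 9.73 and 10.04 on the Intact arrays, against 10.16, 10.22, 10.12 and 10.21 on the SVX/VAS arrays. Every Intact array lay below every SVX/VAS array, whose values spanned only 10.12 to 10.22. The log2 difference was -0.41 (SE 0.113, limma adjusted p = 0.204), 1.33-fold lower. The second Krt18 cluster gave log2 signals of 8.67, 6.73, 8.36 and 7.20 on the Intact arrays and 8.13, 7.72, 7.98 and 8.00 on the SVX/VAS arrays. Its difference was -0.22 with a 95% interval of -1.10 to 0.66, so it did not settle the direction. Whether Krt8 and Krt18 differed in their response was not tested.

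Krt7 and Krt19, which accompany this pair in ducts, glands and the uterine lining, were slightly higher in value after Intact mating and did not pass. Krt19 had log2 signals of 10.09, 10.06, 9.85 and 10.35 after Intact mating, against 9.87, 9.97, 9.73 and 9.63 after SVX/VAS mating. The groups met in the middle, with a log2 difference of 0.29 (95% interval -0.0050 to 0.58, limma adjusted p = 0.429). Krt7 averaged 9.12 ± 0.17 on the Intact arrays and 8.93 ± 0.12 on the SVX/VAS arrays (SD, n = 4 each, log2 signal), a difference of 0.19 that did not pass either and was 0.115 without Intact replicate 4.

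Krt20, a type I simple keratin known from intestinal lining, urothelium and Merkel cells, showed the largest difference of the class. Its log2 signals were 7.71, 7.80, 7.12 and 8.14 on the Intact arrays, against 7.11, 7.21, 6.98 and 6.35 on the SVX/VAS arrays. Of the Intact arrays 3 lay above all SVX/VAS arrays, and replicate 3 lay among them. The fold was 1.71 (log2 0.78, SE 0.246, limma adjusted p = 0.251).

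**Figure D2:**
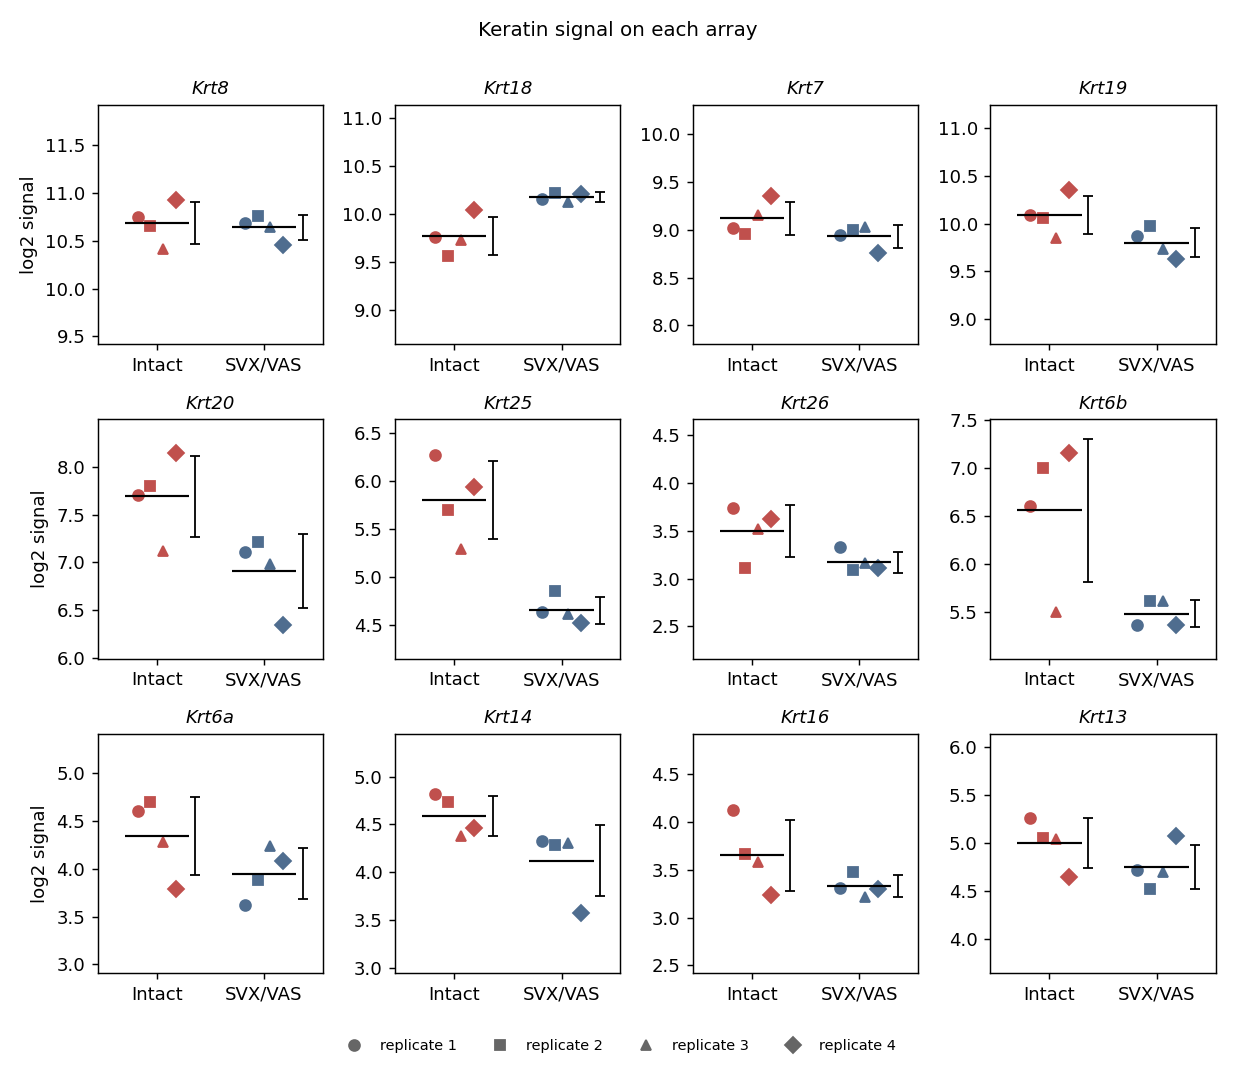
Log2 signal (y axis, all panels of equal span) of keratins on the Intact (left) and SVX/VAS (right) arrays. Symbols mark replicate numbers, horizontal lines are group means and bars are 1 SD of 4 arrays. Krt25, Krt14 and Krt18 show no overlap between groups, while for Krt20 and Krt6b the third Intact array sits at the SVX/VAS level.

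Among stratified keratins, Krt6b, a type II keratin known from injured epidermis and oral epithelium, differed most. It had log2 signals of 6.61, 7.00, 5.50 and 7.16 on the Intact arrays, against 5.36, 5.61, 5.61 and 5.36 on the SVX/VAS arrays. Again 3 Intact arrays were above all SVX/VAS arrays and Intact replicate 3 was within their range. The fold was 2.115 (log2 1.08, SE 0.319, 95% interval 0.36 to 1.80), with a limma adjusted p of 0.227. Without Intact replicate 3 the log2 difference was 1.44 and passed (limma adjusted p = 0.026, and 0.395 at the highest over all alternatives). Its close copy Krt6a had 4.60, 4.70, 4.28 and 3.79 on the Intact arrays, against 3.62, 3.88, 4.24 and 4.08 on the SVX/VAS arrays, and the groups overlapped. The 2 genes are very similar in sequence, so their probes may share signal.

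Krt16 and Krt17, type I keratins known together with Krt6 from injured epidermis, differed in the sign of their values. Krt16 averaged 3.65 ± 0.37 after Intact mating and 3.33 ± 0.12 after SVX/VAS mating (SD, n = 4 each, log2 signal). Intact replicate 1 stood highest at 4.13, and without it the log2 difference was 0.169 in place of 0.33. Krt17 averaged 4.49 ± 0.30 on the Intact arrays and 4.62 ± 0.37 on the SVX/VAS arrays, within the spread. Neither passed (limma adjusted p of 0.501 and 0.847).

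Krt14, the type I keratin of basal cells, was higher in value on every Intact array. It had log2 signals of 4.82, 4.73, 4.38 and 4.46 on the Intact arrays, against 4.33, 4.28, 4.31 and 3.57 on the SVX/VAS arrays. The groups were close, since the lowest Intact array exceeded the highest SVX/VAS array by little, and SVX/VAS replicate 4 stood well below its group. The mean signal of Krt14 over all arrays, 4.36, lay below the median of all clusters, 5.37. The log2 difference was 0.47 (SE 0.188, limma adjusted p = 0.365), and 0.29 without SVX/VAS replicate 4, the lowest value of any alternative. Its basal partner Krt5 had a log2 difference of 0.092 (95% interval -0.19 to 0.37), with signals from 5.34 to 5.61 after Intact mating and 5.13 to 5.58 after SVX/VAS mating.

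The other stratified keratins lay within a narrow band. Krt13, the type I keratin of internal stratified epithelia such as oesophagus and vagina, had log2 signals of 5.26, 5.05, 5.04 and 4.64 on the Intact arrays, against 4.72, 4.52, 4.70 and 5.07 on the SVX/VAS arrays. Without Intact replicate 1 the log2 difference of Krt13 was 0.157, in place of 0.24. Its type II partner Krt4 averaged 4.18 ± 0.33 after Intact mating and 4.29 ± 0.11 after SVX/VAS mating (SD, n = 4 each, log2 signal), and neither passed. Krt15, a type I keratin of basal cells, had the lowest value of the class, with a log2 difference of -0.28 (SE 0.134, limma adjusted p = 0.463). The epidermal pair Krt1 and Krt10 differed by 0.126 and 0.018 on the log2 scale.

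Krt25, a type I keratin of the inner root sheath of hair, gave the largest difference and the smallest p of all 51 members. It had log2 signals of 6.27, 5.70, 5.29 and 5.94 on the Intact arrays, against 4.63, 4.85, 4.61 and 4.52 on the SVX/VAS arrays. All Intact arrays lay above all SVX/VAS arrays, and Intact replicate 3 was again the lowest of its group. The mean signal of Krt25 over all arrays, 5.23, lay below the median of all clusters, 5.37. The fold was 2.21 (log2 1.15, SE 0.193, 95% interval 0.71 to 1.58), with an unadjusted p of 2.19e-04 and a limma adjusted p of 0.073. It passed when limma's variance trend and robust option were used (adjusted p = 0.0465) and without Intact replicate 3 (adjusted p = 0.0323, log2 1.32), and the adjusted p reached 0.214 at most over all alternatives.

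Krt26, also a type I root sheath keratin, was higher in value by 0.32 on the log2 scale (SE 0.141, limma adjusted p = 0.413). Its log2 signals were 3.74, 3.11, 3.52 and 3.62 on the Intact arrays, against 3.33, 3.09, 3.16 and 3.11 on the SVX/VAS arrays, so that Intact replicate 2 lay in the SVX/VAS range. The mean signal of Krt26 over all arrays, 3.33, was the lowest of all keratins. The remaining type I members of the sheath, Krt27 and Krt28, differed by 0.054 and 0.050. Of the type II members Krt71, Krt73 and Krt74, which pair with these genes in the follicle, none reached an unadjusted p of 0.05, with log2 differences from -0.113 to 0.165. Krt75, the keratin of the companion layer beside the sheath, had the lowest value of the class, -0.26 (SE 0.159), which was -0.110 without SVX/VAS replicate 2.

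None of the 14 hair keratins reached an unadjusted p of 0.05, where 11.9% of all clusters did. Their log2 differences ran from -0.27 for Krt82, a cuticle keratin, to 0.22 for Krt83, a cortex keratin. Krt83 varied within the Intact arrays from 5.42 to 6.40 in log2 signal, against 5.43 to 6.04 on the SVX/VAS arrays, and its difference was 0.043 without Intact replicate 4 and 0.113 without Intact replicate 1. That of Krt82 was -0.17 without Intact replicate 1. Krt81, Krt83 and Krt86 are close copies whose probes may share signal. Among the other keratins, Krt80, a type II keratin of many epithelia, was lower on all Intact arrays (5.79 to 6.04, against 6.07 to 6.13 on SVX/VAS arrays, log2 signal). The difference was small, -0.18 (SE 0.091, limma adjusted p = 0.487). Krt42, a nail keratin in the mouse, averaged 6.30 ± 0.19 after Intact mating and 6.08 ± 0.07 after SVX/VAS mating (SD, n = 4 each, log2 signal) and did not pass.

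Groups that did not overlap were thus found for 4 keratins (7.84%), Krt25 and Krt14 higher and Krt18 and Krt80 lower, against 8.17% of all clusters (3.37% higher and 4.81% lower). The median log2 fold change was 0.052 for the 28 type I and 0.070 for the 23 type II genes. The members with the largest values did not form a block on the map. Krt25 and Krt26 are neighbours on chromosome 11, but Krt24 on one side and Krt27 on the other differed by -0.096 and 0.054. On chromosome 15, Krt6b and Krt6a are neighbours, with Krt5 beside them at 0.092, and Krt8 and Krt18 are neighbours at 0.050 and -0.41.

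**Figure D3:**
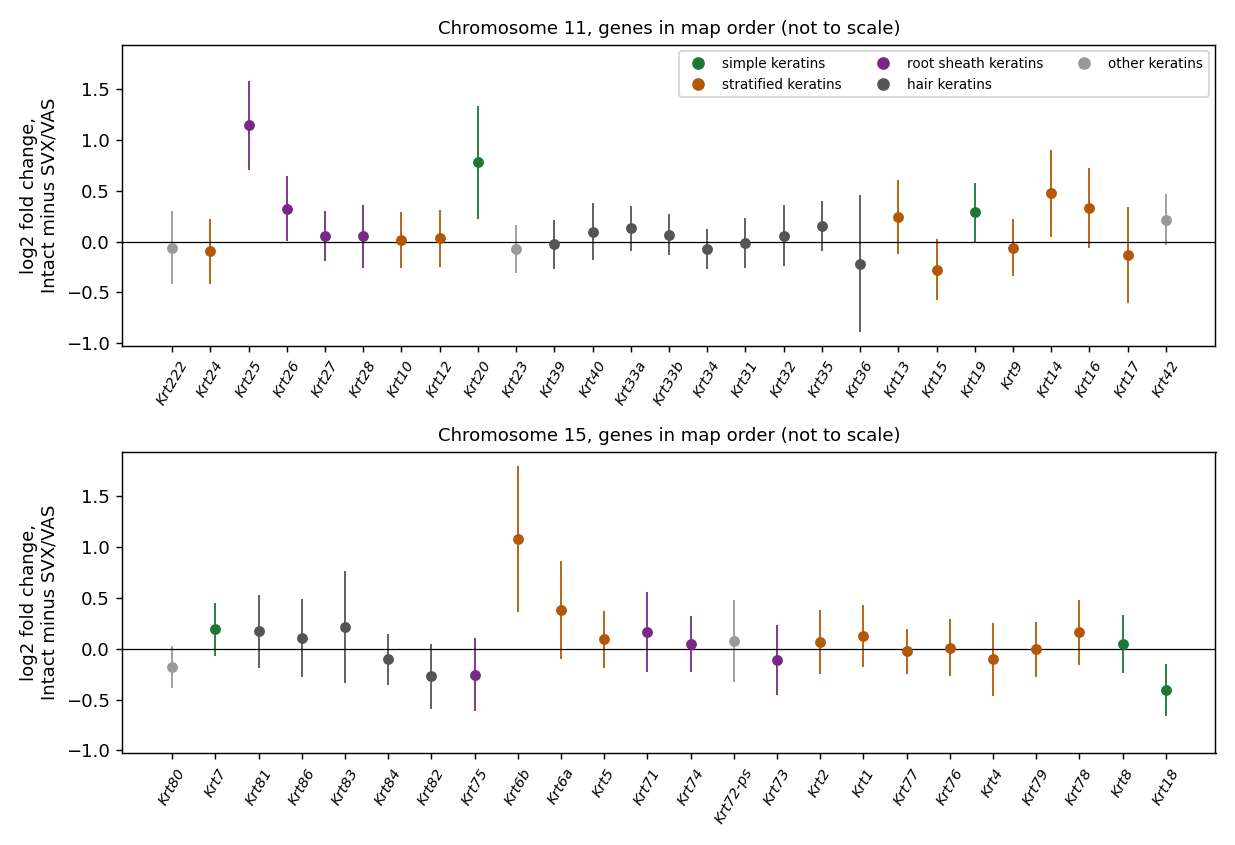
Log2 fold change (Intact minus SVX/VAS, y axis) with limma's 95% interval for keratins in their order on chromosomes 11 (top) and 15 (bottom), coloured by class. Distances are not to scale. Krt25 and Krt20 stand highest on chromosome 11 and Krt6b on chromosome 15, with Krt26 beside Krt25 and Krt6a beside Krt6b at smaller positive values.

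Keratin filaments are anchored at cell junctions by desmosomes and plakins, and no gene of that list passed the adjusted test either. At an unadjusted p under 0.05, 1 of 20 was higher and 2 lower, against 5.13% of all clusters higher and 6.78% lower. Dsg3, a desmosomal cadherin of stratified epithelia, had log2 signals of 6.04, 5.73, 5.97 and 6.23 on the Intact arrays, against 5.36, 5.47, 5.19 and 5.24 on the SVX/VAS arrays. Its groups did not overlap, and the log2 difference was 0.67 (SE 0.125, limma adjusted p = 0.0917). Dst, a plakin that ties keratin to the basal membrane, was lower by value on every Intact array, with a log2 difference of -0.38 (SE 0.113, limma adjusted p = 0.234). Dsp, desmoplakin, which binds keratin to the desmosome, had 9.60, 9.47, 9.45 and 9.82 on the Intact arrays, against 9.83, 9.92, 9.87 and 9.89 on the SVX/VAS arrays. All Intact arrays were lower, by -0.29 on the log2 scale (SE 0.105, limma adjusted p = 0.312), and Ppl, periplakin, had -0.22.

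Hemidesmosome genes (0 of 7) and the other intermediate filament genes (0 of 15) held no member at an unadjusted p under 0.05, where 11.9% of all clusters lay. The smallest p-values there belonged to Itgb4, the integrin of hemidesmosomes (log2 -0.24), and Synm, synemin (log2 0.18), whose limma adjusted p-values were 0.422 and 0.463. Next by p came Cd151, a tetraspanin of hemidesmosomes, and the laminin chain Lama3, with log2 differences of -0.249 and -0.277. Among other filament genes they were the neurofilaments Nefm and Nefh and the lamin Lmnb1, with 0.167, -0.117 and -0.136. Vim, vimentin of stromal cells, differed by -0.034 (SE 0.249).

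Among 17 regulators of keratin genes and epithelial differentiation, 3 were higher and 2 lower at an unadjusted p under 0.05, against 5.13% of all clusters higher and 6.78% lower, and none passed the adjusted test. Zfp750, a factor of epidermal differentiation, had log2 signals of 6.80, 7.03, 6.75 and 7.22 on the Intact arrays, against 6.41, 6.31, 6.36 and 6.38 on the SVX/VAS arrays. The Intact arrays all lay above, with a fold of 1.50 (log2 0.59, SE 0.119, limma adjusted p = 0.117). Klf5, a factor of proliferating epithelia, had 10.16, 10.22, 9.84 and 10.37 on the Intact arrays, against 9.63, 9.81, 9.42 and 9.67 on the SVX/VAS arrays, without overlap (log2 0.52, SE 0.136, limma adjusted p = 0.185). Ovol2 and Grhl2, which maintain epithelial identity, were lower by value on all Intact arrays. Ovol2 had 6.67, 6.42, 6.69 and 6.55 on the Intact arrays, against 7.32, 6.88, 7.09 and 7.07 on the SVX/VAS arrays (log2 -0.51, SE 0.118, limma adjusted p = 0.151), and Grhl2 differed by -0.24. Trp63, the master regulator of basal cells, differed by -0.195 (SE 0.139) and did not pass.

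**Figure D4:**
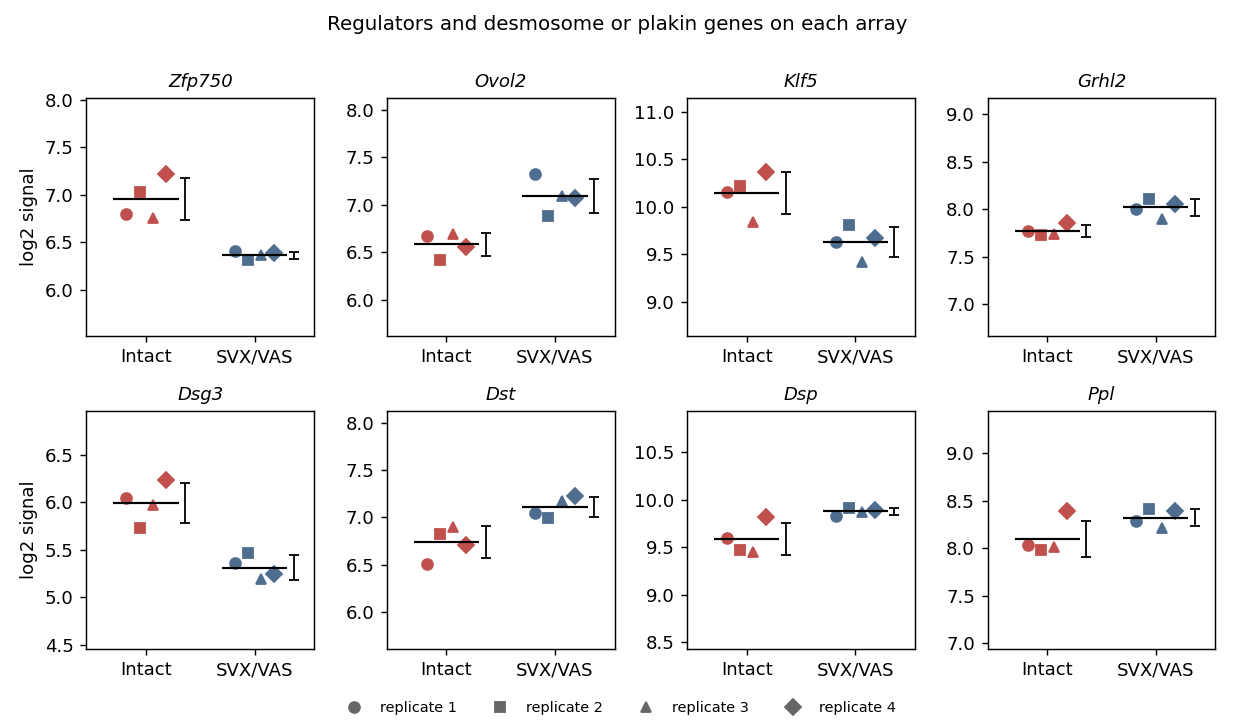
Log2 signal (y axis, all panels of equal span) of 4 regulators and 4 desmosome or plakin genes on the Intact (left) and SVX/VAS (right) arrays, with symbols for replicates, lines for means and bars for 1 SD of 4 arrays. Zfp750, Klf5 and Dsg3 lie higher and Ovol2, Grhl2, Dst and Dsp lower on the Intact arrays.

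Marker lists were measured beside these values. The mean log2 signal of 16 uterine epithelium markers was 8.51 to 8.77 on the Intact arrays, against 8.49 to 8.62 on the SVX/VAS arrays, and Epcam and Cdh1 differed by 0.036 and -0.109. Of that list 3 were higher at an unadjusted p under 0.05, Wnt7b, Calb1 and Cldn7 (log2 0.62, 0.60 and 0.33), against 5.13% of all clusters, and Wnt7a followed at 0.24. Whatever their p, 10 of the 16 were higher and 6 lower in value, with a median log2 difference of 0.086. The mean of 22 squamous epithelium markers was 5.17 to 5.24 on the Intact arrays, against 5.05 to 5.18 on the SVX/VAS arrays. Of these, Dsg3 and Sprr1b, a cornified envelope gene (log2 0.61), were higher at an unadjusted p under 0.05, again against 5.13% of all clusters. Sprr1a, of the same family, and Ivl, Lor and Krtdap, of cornifying cells, differed by 0.304, 0.343, 0.067 and -0.077. In value 12 of the 22 were higher and 10 lower, with a median log2 difference of 0.044. Only 8 of the 22 had a mean signal at or above the median of all clusters. Means of 12 stroma markers were 7.39 to 8.12 on the Intact arrays, against 7.68 to 8.25 on the SVX/VAS arrays. Those of 10 smooth muscle markers were 6.60 to 7.53 on the Intact arrays, against 6.77 to 7.29 on the SVX/VAS arrays. Both lists varied between arrays within a group, with Intact replicate 1 lowest in each. No stroma or smooth muscle marker reached an unadjusted limma p of 0.05, where 11.9% of all clusters did. The members with the smallest p were Pdgfra, Lum, Col1a2 and Col3a1 in stroma (log2 -0.392, -0.265, -0.294 and -0.298). In smooth muscle they were Smtn, Lmod1, Actg2 and Myh11 (log2 0.274, 0.218, 0.12 and 0.111). Intact replicate 3, the lowest Intact array for Krt25, Krt6b, Krt20, Krt14 and Krt19, also had the lowest Intact means of uterine epithelium markers (8.51, the other Intact arrays 8.69 to 8.77), hemidesmosome genes (8.26) and neutrophil markers (5.19), and the highest Intact mean of stroma markers (8.12). Other members and lists were lowest elsewhere. Intact replicate 2 was lowest for Krt18 and Krt7 and for the means of squamous markers (5.17) and desmosome and plakin genes (6.5). Intact replicate 4 was lowest for Krt6a, Krt16 and Krt13. Means of 15 neutrophil markers were 5.19 to 5.43 on the Intact arrays and 5.05 to 5.17 on the SVX/VAS arrays, without overlap, with 4 members higher and 1 lower at an unadjusted p under 0.05, against 5.13% of all clusters higher and 6.78% lower. By p the first were Stfa2l1, Il1r2, Ly6g and Cxcr2, with log2 differences of 0.396, 0.41, -0.368 and 0.541, and none passed the adjusted test. Only 5 of the 15 neutrophil markers had a mean signal at or above the median of all clusters, 5.37. The part of these cell types in the keratin values was not tested. Arrays correlated at 0.971 to 0.978 within Intact and 0.981 to 0.984 within SVX/VAS over all clusters, so the Intact pools were the more varied.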

How the data were processed

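RNA of scraped endometrium, pooled from 4 females an array, was hybridised to 8 Affymetrix Mouse Gene 2.0 ST arrays, 4 a group. Partek Genomics Suite 6.6 gave the values, per the series text: RMA for the background, a correction for GC, and the mean of a cluster's probes, and the submitters' processing notes also name Affymetrix Expression Console. Whether arrays were normalized to one another, and to which genome build probes were assigned, was not given in the sources used here. Log2 values per array that the authors deposited were used as they stand. The p-value and ratio columns that the authors deposited compare the same groups per the file headers. They were recovered from the log2 values to at most 9.8e-04 in p and 6.0e-05 in log2 ratio. The authors' score columns (signed fold, F and sums of squares) compare the same groups too and were not recomputed.

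limma 3.58.1 (lmFit and eBayes, in R 4.3.3) was fitted to all 41345 clusters and p-values were adjusted by Benjamini-Hochberg over all of them. The limma intervals are 95% with 9.03 degrees of freedom. The fit was tested on simulated data with independent noise for each cluster and equal variance in both groups. Such data differ from these arrays, so the test does not show how far the calls hold here. Members and lists were chosen with earlier results of these data known. Genes were named by rule: keratins with an unadjusted p under 0.05, 12 fixed keratins, the highest and lowest of each class, and up to 4 genes with the smallest p of each other list. Others (Krt1, Krt10, Krt24, Krt27, Krt28, Krt71, Krt73, Krt74, Vim, Trp63, Epcam, Cdh1, Lor and Krtdap) complete a pair, a neighbourhood or a marker list, and were chosen after their values were seen. Of 51 keratin symbols, 50 matched RefSeq (GRCm38.p6) directly and 1 as a synonym, for names, order on the chromosome and upstream sequences. Alternatives were the methods' t-test, the authors' comparison table, quantile normalization, median centring, a filter on dim clusters, a variance trend with robust estimation, a replicate block, each array left out, and the brighter of 2 clusters. The last of these could change nothing, because the Krt18 cluster used throughout was already the brighter. The authors' table holds the same test as the methods' t-test.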

Additional observations from a re-analysis of the deposited data

Results flagged for a closer look

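Among the 21 keratins named, 42 groups of 4 arrays were searched for a single array far from the other 3, and chance alone would single out about 1 group in 20. In Krt14 the SVX/VAS replicate 4 array had a log2 signal of 3.57, while the other 3 lay between 4.28 and 4.33. In Krt4 the Intact replicate 3 array had 3.69, while the other 3 lay between 4.31 and 4.39.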

How the results depend on the processing

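Over all clusters limma called 34. The methods' t-test and the authors' deposited table called 10, quantile normalization 54, the filter on dim clusters 358, the variance trend with robust estimation 173, and the fit with the replicate number as a block 0. With 1 array left out the count ran from 2 to 50, with 2, 4, 50 and 21 without Intact replicates 1 to 4 and 3, 9, 2 and 2 without SVX/VAS replicates 1 to 4. Of the keratins limma called 0, the variance trend called 1 (Krt25), and leaving out 1 array called 0 to 2, the 2 being Krt25 and Krt6b without Intact replicate 3. Keratins at 1.5-fold with an unadjusted p under 0.05 numbered 3 under every alternative except the filter on dim clusters, which kept 21 keratins, not Krt25 among them, and gave 2. With that filter the root sheath median was -0.113, from Krt73 alone. With 1 array left out the median of the other keratins ran from -0.088 to 0.041 and that of the stratified from -0.004 to 0.073. Signs of named keratins turned only with an array left out, among values near zero: Krt17 ran from -0.284 to 0.013, Krt4 from -0.175 to 0.059, Krt8 from -0.031 to 0.141 and Krt5 from -0.004 to 0.147. The other 17 named keratins kept their sign under all alternatives that held them. Most alternatives could not turn a sign, since they leave each log2 difference as it is. These were the t-test, the authors' table, the variance trend, the block, the filter and the brighter cluster. Only quantile normalization, median centring and leaving out an array could turn one. Same-numbered arrays of the 2 groups deviated together at correlations of 0.0684, 0.0261, -0.0213 and -0.0327, and differently numbered arrays at -0.1013 to 0.1078. No pairing by number was seen, which does not exclude one. The block changed no keratin's call (Krt25 adjusted p = 0.214, limma).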
